A study of Mus musculus with 13 samples.

Results

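The regions described here are the H3K27me3 peaks on chromosome 3 in 4 mouse leukaemia cell lines. All peaks on that chromosome were taken from each line's list, 1709 of 38356 H3K27me3 peaks in all: 293 of 8412 in 748T, 563 of 5600 in 106A, 652 of 19469 in 961C and 201 of 4875 in the SCL-LMO1 line. The chromosome was chosen by the number of peaks that 106A has on it, so that number is given as a description and is not tested.

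H3K27me3 is trimethylation of lysine 27 of histone H3. Polycomb repressive complex 2 lays it down, and in blood cells it covers silenced genes, often those of other lineages. H3K4me3, trimethylation of lysine 4, sits at promoters that are active or poised, and a promoter with both marks is called bivalent.

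The study mapped both marks by chromatin immunoprecipitation and sequencing in lines that carry the NUP98-PHF23 fusion (NP23) and in a control line. Lines 748T and 106A came from NP23 pre-T LBL of mouse 748 and mouse 106, line 961C from NP23 AML of mouse 961, all on C57BL/6. The control, line 7298/2, came from an SCL-LMO1 pre-T LBL on a C57BL/6+C3H hybrid background, and is called the SCL-LMO1 line here. All 4 lines grow without cytokines, each stands for 1 mouse, and each has 1 library per mark, so differences between lines were not tested. What sets the control apart is both its oncogenes and its strain.

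Each listed peak has a width, a height (the largest number of reads piled up in it) and the mean of a second track, marked only with the letter b. Because its values are low it is taken to be a background, but its meaning is not explained in the files. It is also not stated whether the second tracks of both marks in a line come from the same library. Read totals are not given either, so depth is unknown and heights were compared within a list. The mm9 genes under the peaks were not analysed here, and the identity of the lines was not checked against marker genes.

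Chromosome 3 held 10.1% of the 106A list (95% exact interval 9.28 to 10.9). It held 3.48% in 748T (3.10 to 3.90), 3.35% in 961C (3.10 to 3.61) and 4.12% in the SCL-LMO1 line (3.58 to 4.72). The intervals cover counting error alone, since peaks of a list share a library. In 106A chromosome 3 came next after chromosome 11 (11.3%), and in the other lines it ranked 13 or 14 of 19 autosomes. The group of NP23 pre-T lines had a mean of 6.77% ± 4.65 (SD, n = 2), and its 2 members lay on either side of the control. Without 106A the value was 3.48% and without 748T it was 10.1%.

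Set against the median of the other 3 lines, the 106A share of chromosome 3 was 2.89 times as large. On the 18 other autosomes this ratio ran from 0.503 on chromosome 8 to 1.46 on chromosome 9. In number of peaks, no such surplus was present in H3K4me3. Chromosome 3 held 4.97% of the 106A H3K4me3 list (4.65 to 5.32), against 4.78%, 4.85% and 5.06% in 748T, 961C and the SCL-LMO1 line. Mean H3K4me3 height in 106A was 94.1 reads on chromosome 3 and 89.3 on the other autosomes, with medians of 100 and 99. In the other lines the mean was lower on chromosome 3: 70.8 against 75.9 in 748T, 41.2 against 42.7 in 961C and 71.1 against 74.5 in line SCL-LMO1.

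**Figure D1:**
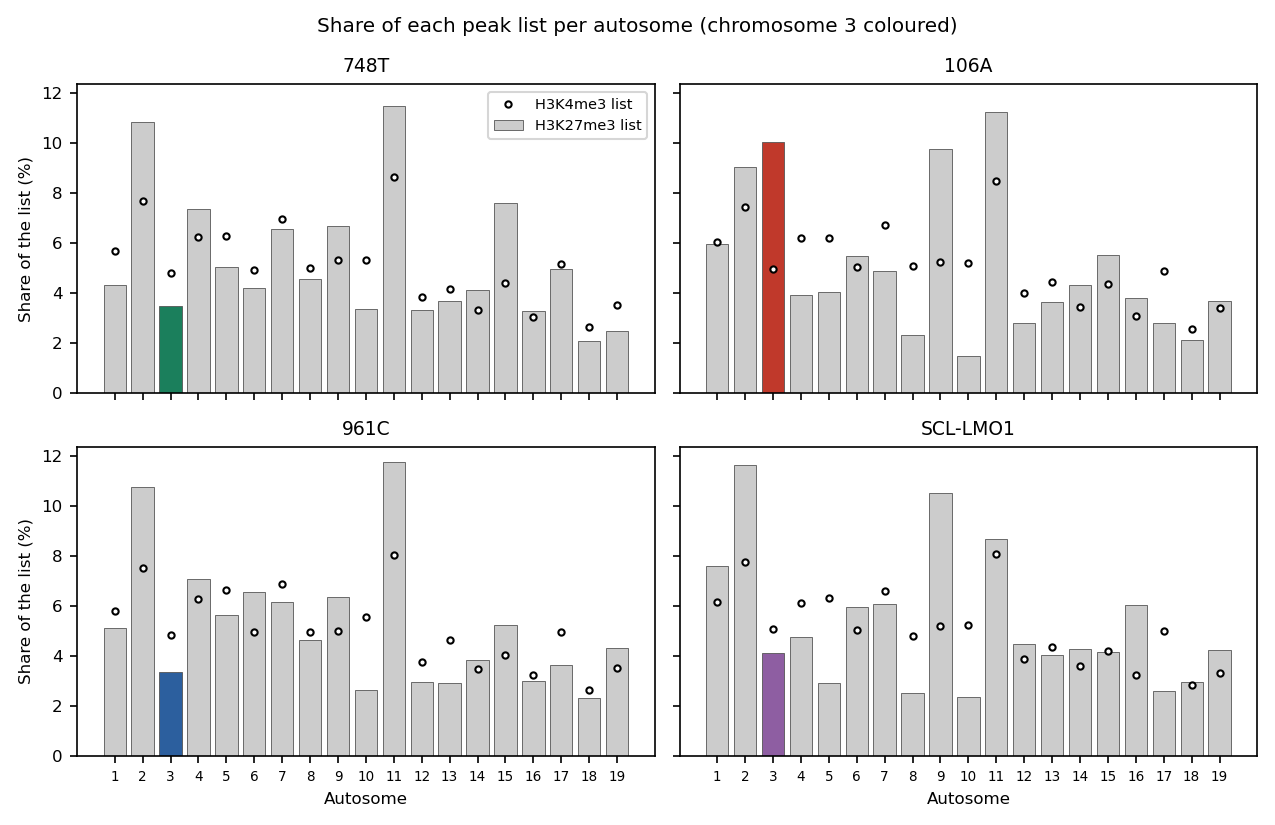
Share of each line's peak list (y axis, percent) on each autosome (x axis), with bars for H3K27me3, the bar of chromosome 3 coloured, and open circles for H3K4me3. The chromosome 3 bar of 106A reaches 10.1% while those of the other lines are between 3.35% and 4.12%, and the chromosome 3 circles of all 4 lines are between 4.78% and 5.06%.

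The 106A peaks were neither even along the chromosome nor confined to 1 place. In bins of 2 Mb, 49 of 80 bins held a 106A peak, against 45 in 748T, 51 in 961C and 40 in line SCL-LMO1. The 5 fullest bins held 41.9% of the 106A peaks on the chromosome (37.8 to 46.1), against 46.8%, 45.4% and 35.3% in 748T, 961C and the SCL-LMO1 line. The same share on the other autosomes of 106A had a median of 41.6% and a range of 27.6% to 64.8%. By this measure chromosome 3 ranked 10 of 19 autosomes in 106A. The variance of the bin counts over their mean, which also grows with the number of peaks, was 23.4 on chromosome 3 and ranked 2 of 19, with a median of 9.18 and a range of 3.22 to 52.6 on the other autosomes.

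Of the 59 bins with a peak of any line, 24 (40.7%) had their highest share in 106A. Over bins of the other autosomes it was 17.9%. This count follows from the surplus that chose the chromosome, and nothing is read from it. If 106A had the mean share of the other 3 lines in each bin, 204.5 peaks would be listed instead of 563, a surplus of 358.5. The bin with the largest surplus held 14.3% of it, the first 5 held 53.3% and the first 10 held 78.7%. In 39 bins 106A had more peaks than this number and in 20 bins fewer.

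The fullest 106A bin, from 106 to 108 Mb, held 65 peaks. The same bin held 26 peaks in 748T, 66 in 961C and 16 in line SCL-LMO1, where it was also the fullest. It was thus a place where every line had many peaks, and 106A had 1.16% of its list there against at most 0.339% in the others.

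The next bin, from 130 to 132 Mb, held 55 peaks in 106A and 4, 5 and 6 in 748T, 961C and the SCL-LMO1 line. The bin from 78 to 80 Mb held 40 in 106A and 0, 1 and 4 in the same lines. No other line had more than 6 peaks in either bin.

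The remaining 2 of the 5 fullest 106A bins lay from 86 to 88 Mb, with 43 peaks, and from 88 to 90 Mb, with 33. Both were also rich in the other lines. The second was the fullest of 748T, with 44 peaks, and of 961C, with 88. H3K4me3 was dense there too, with 61 to 70 peaks per line in this bin. Across the 80 bins the number of H3K27me3 peaks rose with the number of H3K4me3 peaks in each line (Spearman's rho 0.704 to 0.799 across bins, which share a library and a gene density). The overlap of single peaks, given below, was rare.

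**Figure D2:**
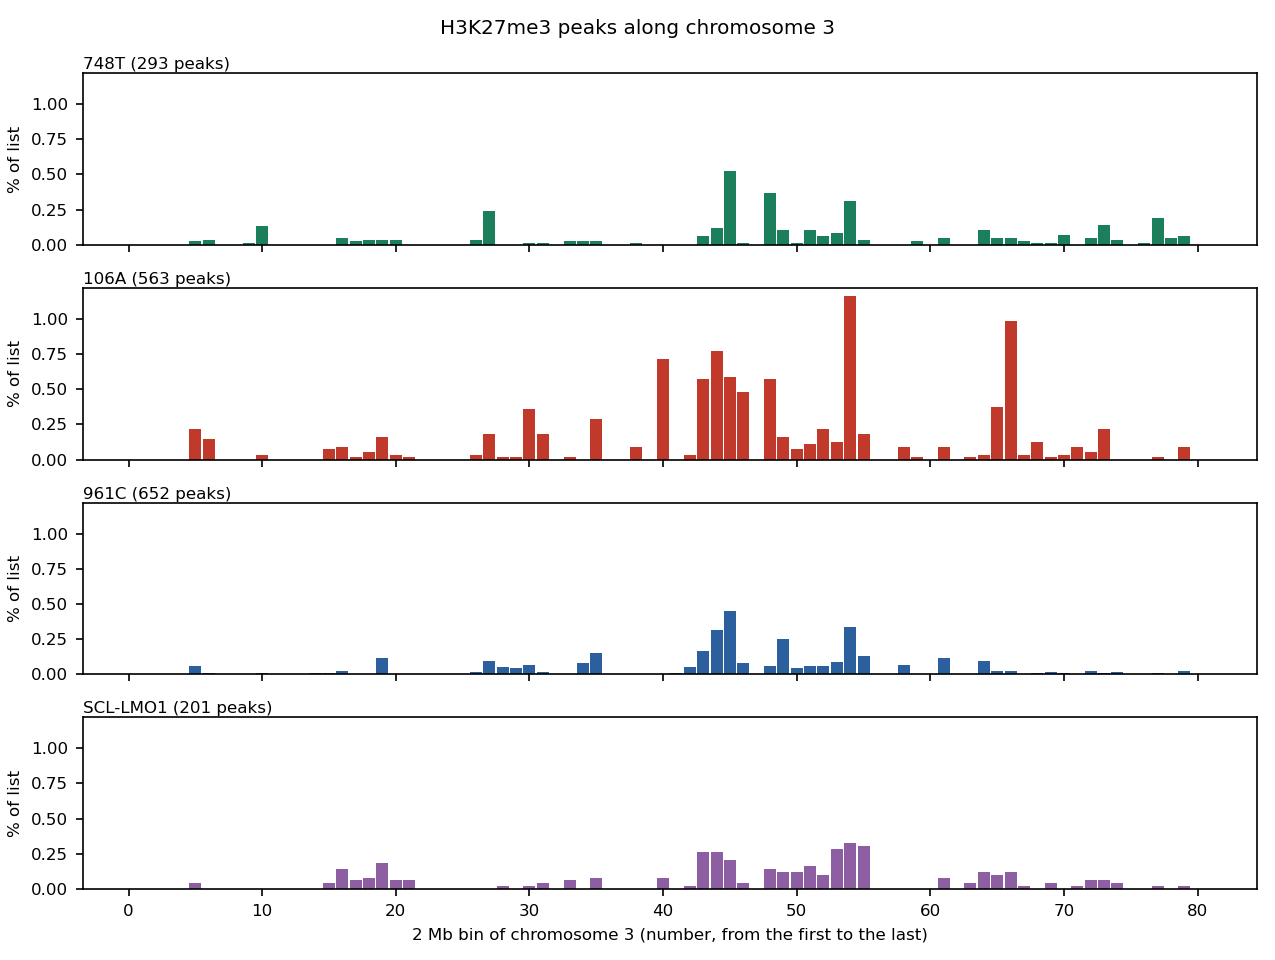
H3K27me3 peaks of each line in the 80 bins of 2 Mb along chromosome 3 (x axis, bin number), as a percent of the line's whole list (y axis). All lines have their fullest stretch in bins 43 to 54, and 106A alone stands high in bins 40 and 66, with 40 and 55 peaks.

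In windows of 20 Mb, 106A had the highest share of the 4 lines in 6 of 8. Like the count of bins, this follows from the surplus that chose the chromosome. Windows of the other autosomes are not given here, so nothing is read from the number of windows. As a ratio, the difference was largest from 60 to 80 Mb, where 106A had 1.29% of its list and the other lines 0.0951% to 0.267%, 4.82 times the highest of them. From 120 to 140 Mb it had 1.71% against 0.298% to 0.533%, and from 80 to 100 Mb 3.25% against 1.19% to 1.43%. The exceptions were 20 to 40 Mb, where the SCL-LMO1 line was higher (0.574% against 0.429% in 106A), and the last window, 140 to 160 Mb, where 748T was higher (0.535% against 0.464%). At the distal end 106A thus had no surplus over 748T, while 961C and the SCL-LMO1 line had 0.0976% and 0.226% there. The first H3K27me3 peak of any line, in 961C, began at 8668383, and the last, in 106A, ended at 157840594.

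The second track of 106A was raised on chromosome 3 in both lists. Over H3K4me3 peaks, which the choice of the chromosome did not use, its median was 1.92 reads on chromosome 3 (1.84 to 1.99) and 1.46 on the other autosomes (1.45 to 1.47), a ratio of 1.31. Chromosome 3 was the highest of 19 autosomes, followed by chromosome 5 at 1.68 reads. In the other lines the ratio of chromosome 3 to the other autosomes was 0.904 in 748T, 0.995 in 961C and 1.02 in line SCL-LMO1. By these medians chromosome 3 ranked 18, 13 and 2 of 19. When means were used, chromosome 3 was first in 961C as well, at 0.338 reads against 0.311 on the other autosomes. A mean can be moved by single peaks. The highest of the 858 peaks there had 15.1 reads, against a median of 0.265, so nothing is read from that first place. In 106A the mean was 1.94 against 1.52. Over H3K27me3 peaks of 106A the median was 0.818 reads (0.773 to 0.869) against 0.478 (0.458 to 0.492). It was above 1 read at 202 of the 563 peaks (35.9%), and at 14.3% of the 106A peaks on the other autosomes.

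Along the chromosome the second track of 106A was not level. Its ratio to the line's autosomal median, over H3K4me3 peaks, was above 1.2 in 18 of 20 bins from 76 to 132 Mb that hold 5 or more such peaks. It was above 1.2 in 8 of 18 such bins before 76 Mb, and in 0 of 9 from 132 Mb to the end, where it lay between 0.721 and 1.05. These limits were chosen after the values were seen. Over whole stretches the ratio was 1.17 before 76 Mb, 1.47 from 76 to 132 Mb and 0.805 beyond. In the SCL-LMO1 line, the only other line with a second track of 1 read or more over H3K4me3, the same stretches gave 0.981, 1.05 and 0.966.

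The surplus of 106A peaks lay mostly in the stretch with the raised second track. Of 563 peaks, 412 (73.2%) lay from 76 to 132 Mb, 113 before it and 38 beyond it. The middle stretch held 76.1% of the surplus, the first 18.8% and the last 5.0%. The other lines had a like share of their own chromosome 3 peaks in the middle stretch, 59.4% in 748T, 73.0% in 961C and 71.1% in line SCL-LMO1. As a share of the whole list, 106A had 3.01 times the median of the other lines in the middle stretch, 2.62 times before it and 2.36 times beyond it. The last ratio depends on the line compared, since 106A had 0.679% of its list there and 748T had 0.654%.

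Single bins did not all follow the second track. The bin from 58 to 60 Mb held 20 peaks in 106A against 1 in 748T, 13 in 961C and 1 in line SCL-LMO1, at a second-track ratio of 1.02. From 104 to 106 Mb the ratio was 1.47, and 106A had 7 peaks against 7, 17 and 14. Over the 47 bins with a ratio, its Spearman's rho with the surplus was 0.482, and with the number of 106A peaks 0.594. These values describe bins that share 1 library. Over the 19 autosomes of 106A, the second-track ratio over H3K4me3 was set beside the share of H3K27me3 relative to the other lines. Spearman's rho was 0.0596 and Pearson's r 0.647. Without chromosome 3 they were -0.106 and 0.040. Chromosome 5 had a second-track ratio of 1.14 and an H3K27me3 share 0.801 times the median of the other lines. What part the second track has in the surplus was not tested.

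**Figure D3:**
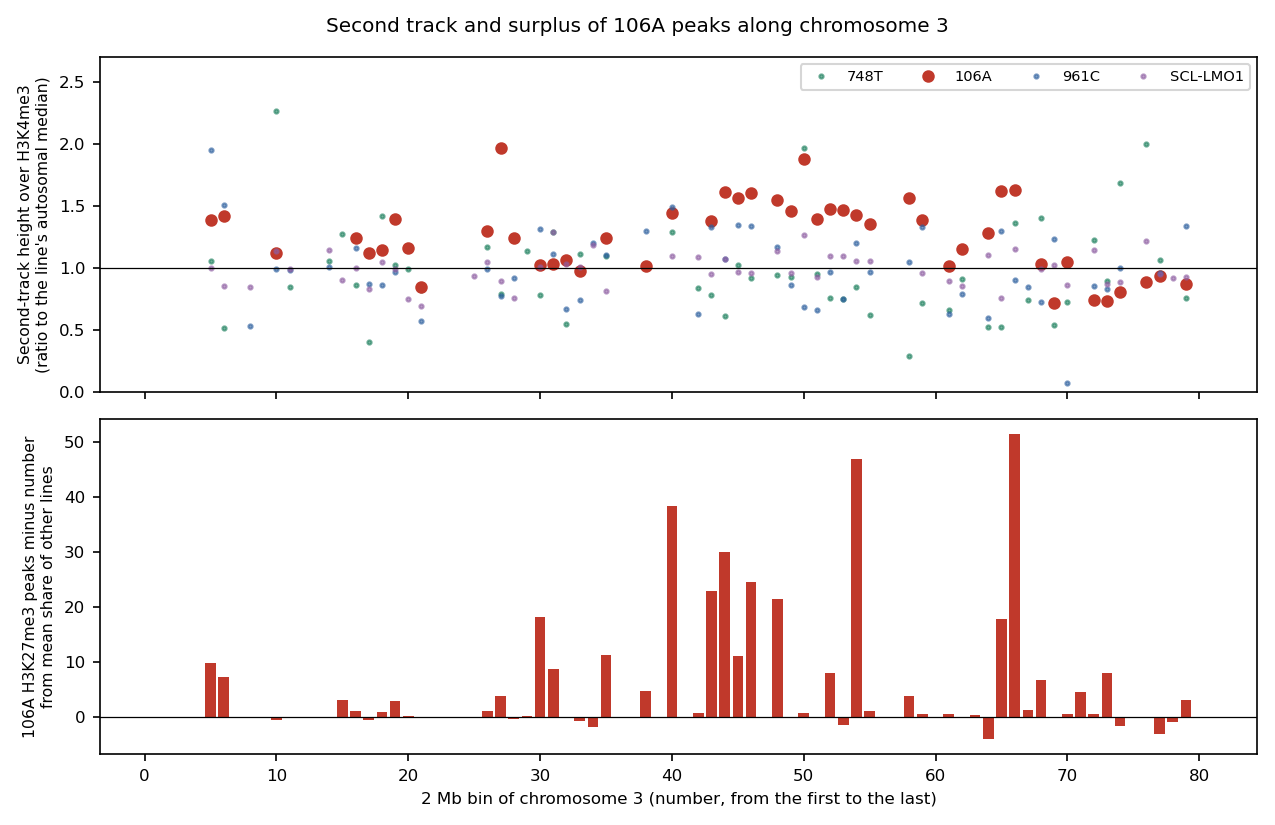
Upper plot: median second-track height over H3K4me3 peaks in each 2 Mb bin of chromosome 3 with 5 or more such peaks, as a ratio to the line's autosomal median (y axis), for 4 lines. Lower plot: 106A H3K27me3 peaks in each bin minus the number given by the mean share of the other 3 lines (y axis, peaks). The 106A points lie above 1.2 in 18 of 20 bins from 76 to 132 Mb (bins 39 to 66) and at most at 1.05 after bin 66, and the largest bars are in bins 66, 54 and 40.

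The 106A peaks on chromosome 3 were taller than elsewhere in that list. Their median height was 12 reads (11 to 12) against 10 on the other autosomes, and the mean was 12.5 ± 3.14 (SD over 563 peaks) against 10.6 ± 2.25. By mean height chromosome 3 was the highest of 19 autosomes, and the next was chromosome 5 at 11.8. Peaks of 20 reads or more made up 19 of 563 (3.37%, 2.04 to 5.22) and 21 of 4861 (0.432%, 0.268 to 0.660) on the other autosomes. The median height was 11 reads before 76 Mb, 12 from 76 to 132 Mb and 9 beyond. In 748T, 961C and the SCL-LMO1 line the median was 12 reads both on chromosome 3 and on the other autosomes. Their means were lower on chromosome 3: 12.4 against 13.3, 12.8 against 13.3 and 12.2 against 12.5 reads. Peaks of 20 reads or more made up 3.41% against 6.53%, 5.67% against 6.30% and 0% against 2.04%, in the same order.

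A cut on height shows how close the peaks lie to the lower end of the list. The limits were chosen after the data were seen. At 10 reads or more, chromosome 3 held 12.9% of the 106A list. When its heights alone were first divided by 1.31, the ratio of the second track over H3K4me3, 146 of its peaks still reached 10 reads and the share was 4.07%. Dividing by a number above 1 can only lower the share, and 1 number was used for the whole chromosome although the ratio ran from 0.805 to 1.47 over its stretches. Heights are whole numbers, so the share moves in steps: asking 12 or 13 reads of chromosome 3 and 10 of the others gave 8.15% and 5.70%. The step is a description of the heights and does not tell what the list would be without the raised second track.

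In width the difference was smaller. The median 106A peak on chromosome 3 was 244 bp wide (219 to 253), against 216 bp (209 to 225) on the other autosomes, whose own medians ran from 148 to 254 bp. Chromosome 3 ranked 3 of 19, within the range of the others. The chromosome 3 medians of the other lines were 183 bp in 748T, 278 bp in 961C and 196 bp in line SCL-LMO1, each below the pooled other autosomes of the line (205, 292 and 215 bp) and inside the range over them. The sign held under the alternatives in 748T alone. In 961C the difference was -14 bp, but 14 bp for peaks of 200 bp or more. In line SCL-LMO1 it was -19 bp, but 0.5 bp against the median of the other autosomes' medians. Peaks of 1 kb or more were 14 of 563 in 106A (2.49%, 1.37 to 4.14) and 2.10% on its other autosomes.

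**Figure D4:**
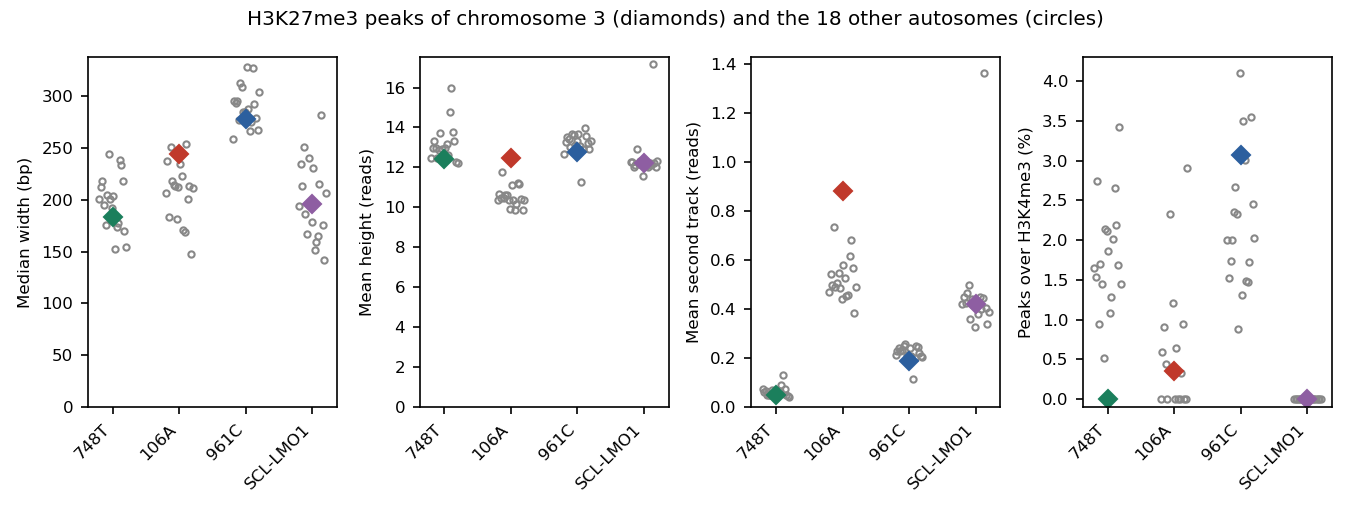
Median width (bp), mean height (reads), mean second track (reads) and share of peaks over H3K4me3 of the same line (percent) for the H3K27me3 peaks of each line, with chromosome 3 as a diamond and each of the 18 other autosomes as a circle. The 106A diamond lies above all circles of its line in height (12.5 reads) and second track (0.884 reads), and among them in width and in overlap with H3K4me3.

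Overlap with H3K4me3 of the same line, counted from 1 bp, was rare on chromosome 3. It was met by 0 of 293 peaks in 748T, which allows a share of up to 1.25%, against 1.81% on the other autosomes of that line. In 106A it was 2 of 563 (0.355%, 0.0431 to 1.28) against 0.473%. In 961C it was 20 of 652 (3.07%, 1.88 to 4.70) against 2% on the other autosomes. In the SCL-LMO1 line it was 0 of 201, as on its other autosomes, where the share was 0% of 4667 peaks. The 748T value was the lowest of its 19 autosomes, and the others lay inside the range of their lines. The intervals of 106A and the SCL-LMO1 line held the value of their other autosomes, and so did that of 961C.

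The widest peak over H3K4me3 in 106A, from 145770292 to 145770555, was 264 bp wide, lay wholly inside an H3K4me3 peak and had a second-track mean of 1.95 reads. In 961C the widest lay from 88056762 to 88058955 and was 2194 bp wide, of which 560 bp were under H3K4me3.

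Most chromosome 3 peaks belonged to 1 line. Merged over the lines they formed 1550 regions, of which 1435 (92.6%) were found in a single line, 15 in 3 lines and 0 in all 4. Merged regions of the other autosomes are not given here, so this share is not a trait of chromosome 3. The overlap of single peaks, below, has the other autosomes beside it. Of the regions in a single line, 565 belonged to 961C, 465 to 106A, 236 to 748T and 169 to the SCL-LMO1 line. Of the 106A peaks, 98 of 563 (17.4%, 14.4 to 20.8) overlapped a peak of any other line, against 24.2% on the other autosomes. In 748T it was 19.5% (15.1 to 24.5) against 22.4%, in 961C 13.3% (10.8 to 16.2) against 11.9%, and in the SCL-LMO1 line 15.9% (11.2 to 21.7) against 13.6%. The interval of 106A was below the value of its other autosomes, and those of the remaining lines held theirs. This share depends on how dense the lists are. Per Mb, 106A had more peaks on chromosome 3 than on its median autosome, which is what chose the chromosome. The remaining lines had fewer there than on theirs. No trait of the 106A peaks is therefore read from the lower share.

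Overlap with 106A was more frequent on chromosome 3, where the 106A list is also denser. Of chromosome 3 peaks, 12.3% in 748T, 10.1% in 961C and 9.45% in line SCL-LMO1 overlapped 106A, against 5.38%, 4.18% and 5.25% on the other autosomes. Overlap of 748T with 961C was lower here than elsewhere, 25 of 293 peaks (8.53%, 5.60 to 12.3) against 18.7%.

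Of the 563 peaks of 106A, 397 (70.5%) had another peak of the list within 10 kb, against 54.5% on the other autosomes. This share rises with the number of peaks per Mb, 3.53 on chromosome 3 against a median of 1.74 on the other autosomes, which is what chose the chromosome, so nothing further is read from it. In the other lines chromosome 3 had fewer peaks per Mb than the median autosome, and the share was 55.6% against 64.7% in 748T, 78.2% against 82.9% in 961C and 37.3% against 41.2% in line SCL-LMO1.

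Among the 10 widest 106A peaks of the chromosome, the first ran from 88009537 to 88015164, 5628 bp with a height of 19 reads, and was the widest of that list. It overlapped 6 peaks of 961C and 4 of the SCL-LMO1 line. Within 50 kb of it lay 29 peaks of 961C, 12 of 106A, 7 of the SCL-LMO1 line and 1 of 748T, and the widest chromosome 3 peak of 961C (88003484 to 88007360, 3877 bp, 29 reads) was its neighbour. The merged region from 88007739 to 88015164 had 86.0% of its bases under peaks of 106A, 77.1% under peaks of 961C and 16.9% under peaks of the SCL-LMO1 line.

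The next widest 106A peak, from 131061251 to 131064127 (2877 bp), was also the tallest of the chromosome with 30 reads, and ranked 3 by height in the whole list. It met no peak of another line. In the same bin, the peaks from 130712921 to 130714977 (2057 bp, 23 reads) and from 130709812 to 130711082 (1271 bp, 21 reads) belonged to a group of 20 peaks of 106A within 50 kb. No H3K27me3 peak of the other 3 lines lay in that stretch. Second-track means over these 3 peaks were 1.54, 1.50 and 1.70 reads, above the 106A median on the chromosome.

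The peaks from 94716641 to 94718829 (2189 bp, 17 reads) and from 94727132 to 94728467 (1336 bp, 17 reads) lay in a group found in both NP23 pre-T lines. Within 50 kb, 106A had 22 peaks, 748T had 21, 961C had 4 and the SCL-LMO1 line had 2. One of the widest 748T peaks, from 94721696 to 94722770 (1075 bp, 19 reads), lay between them. Of the 3 tallest 748T peaks, the one from 94716830 to 94717392 (23 reads) lay inside the first of them, and the one from 94725857 to 94726630 (21 reads) lay between them. Of the 15 regions of 3 lines, 5 lay from 94707904 to 94726736.

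In the bin from 106 to 108 Mb the order of the lines changed from place to place. The 106A peaks from 107383226 to 107385354 (2129 bp, 24 reads) and from 107370443 to 107372428 (1986 bp, 16 reads) each met 2 peaks of 961C and none of 748T or the SCL-LMO1 line. Within 50 kb of either, 961C had 24 peaks, 106A 15, the SCL-LMO1 line 2 and 748T 0. Farther on, the widest SCL-LMO1 peak of the chromosome, from 107577599 to 107578836 (1238 bp, 14 reads), met a 106A peak. Within 50 kb of it lay 14 peaks of 106A, 10 of 748T and 5 each of 961C and the SCL-LMO1 line.

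The remaining 2 of the 10 widest 106A peaks ran from 108306740 to 108308015 (1276 bp), where it met 2 SCL-LMO1 peaks, and from 129785776 to 129787044 (1269 bp), where it met 1 peak of 748T. Of the 5 tallest, the one from 79333375 to 79334100 (726 bp, 26 reads) stood in a group of 22 peaks of 106A within 50 kb, where the SCL-LMO1 line had 4 and the others 0. Its second-track mean of 2.04 reads was the highest among the named 106A peaks. The one from 129555262 to 129555698 (437 bp, 29 reads) met 1 SCL-LMO1 peak, and the one from 94723659 to 94723968 (310 bp, 24 reads) met 748T and 961C.

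In 748T the widest peaks were 2 of 1075 bp, the one named above and one from 89163147 to 89164221, followed by 1062 bp from 89123762 to 89124823. The last met the tallest 961C peak of the chromosome, from 89123605 to 89126695 (3091 bp, 39 reads). That 961C peak also met an H3K4me3 peak of 748T and none of 961C. The remaining tallest 748T peak, from 9060984 to 9061228 (245 bp, 23 reads), met no other line and had a second-track mean of 1.33 reads, against a median of 0 in that list.

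Other peaks of 961C and the SCL-LMO1 line were mostly private. In 961C the third widest, from 87825561 to 87828648 (3088 bp, 22 reads), met no other line, and the short peak from 88266612 to 88266808 (197 bp, 29 reads) overlapped H3K4me3 of 961C over 163 bp. In the SCL-LMO1 line the peak from 107506293 to 107507028 (736 bp) met 106A. Those from 105323805 to 105324584 (780 bp), 85744767 to 85745025 (18 reads), 131155281 to 131155608 (17 reads) and 102756752 to 102756851 (16 reads) met no peak of another line.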

How the data were processed

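The tools named in the submitters' processing notes are BWA 0.5.9-r26 and CASAVA 1.9, and the build is mm9. No peak caller is named in the labels or files. Each list deposited by the authors has 1 library's regions with start, end and a text field. The field holds mean and maximum height of the sample and of a second track, which all chromosome 3 H3K27me3 peaks have. Starts count from 0 and are printed from 1.

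The chromosome, the bins and the regions to name were chosen with earlier results of these data known. The regions named were the 10 widest and 5 tallest 106A peaks, the 3 widest and 3 tallest of each other line, the fullest bins, and the widest peak over H3K4me3. The rule also took regions of all 4 lines, of which there were 0. A few more regions were added once their values were known. Peaks were put into bins by their midpoint, and the furthest peak end in any list (159.5 Mb) stood for the chromosome length. Shares carry exact Clopper-Pearson 95% intervals and medians carry order-statistic 95% intervals. No test was run, because no antibody was repeated in a line. The 4 inputs were not analysed here. Overlap and bin counts were tested on simulated data. Python 3.11.15, numpy 2.4.6, pandas 2.3.3, scipy 1.17.1 and matplotlib 3.10.9 were used. Alternatives changed height, width, joining, second-track limit, denominator, bin size, overlap and the lines included.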

Additional observations from a re-analysis of the deposited data

Results flagged for a closer look

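The NP23 list of 961C, whose title also carries the label V5, enters no comparison above. On chromosome 3 it held 127 of its 1629 peaks (7.80%, exact 95% interval 6.54 to 9.21). Of these, 8 (6.30%, 2.76 to 12.0) overlapped an H3K27me3 peak of 961C. The count is listed because it is above a preset limit of 3, which is not an expected number, so nothing is read from passing it. Neither share of NP23 peaks is given here for the other autosomes. Counted over H3K27me3 peaks of 961C, this was 8 of 652 (1.23%, 0.531 to 2.40) on chromosome 3 against 0.748% on the other autosomes, a value inside the interval. No NP23 peak on chromosome 3 overlapped H3K27me3 of the other lines, where 0.112% of the 748T peaks, 0.206% of the 106A peaks and 0.0643% of the SCL-LMO1 peaks on the other autosomes did, shares too low to be told from 0 on chromosome 3. No library without the fusion was set beside it here.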

How the results depend on the processing

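No paired analysis was possible because each line has 1 library per mark and no test was run. Of 85 alternative values over 26 results, 65 stayed within the 95% interval of the reported value (1 SD for the mean of the NP23 pre-T lines) and 20 did not. Some of the 65 could not have moved. With n = 2, the mean without either line always stays within 1 SD. Overlap of 0 with H3K4me3 in 748T and the SCL-LMO1 line stays 0 under any stricter setting. The count is therefore not a measure of stability. For the share on chromosome 3, 106A was above the other lines under every alternative run, but by little after scaling of heights, which can only lower its share. It was 15.5% for the taller 50% of the list, 11.0% for peaks of 200 bp or more, 8.82% with peaks within 1 kb joined, 7.68% with a second-track mean of at most 1 and 11.4% by covered bases. Added after seeing the data, it was 12.9% at 10 reads or more, 9.0% without its fullest bin, and 4.07% at 10 reads with scaled heights. Chromosome 3 heights of each line were divided by that line's own ratio, and the SCL-LMO1 line (ratio 1.02) then had 3.94%. Unscaled, that line had 4.16% at 10 reads, above the scaled 106A value. The order after scaling thus rests on scaling the SCL-LMO1 line too. No peak of 748T or 961C crossed 10 reads. In 748T the share was 2.97% for the taller 50% and 3.08% by covered bases. In 961C it was 2.93% for the taller 50% and 3.02% without the bin from 106 to 108 Mb. The mean of the NP23 pre-T lines ran from 3.48% to 10.1% when either line was left out. 106A had the highest share in 62.1% of bins of 5 Mb. The 5 fullest bins held 56.8% in 748T, 48.0% in 106A and 53.7% in 961C for the taller 50%, and 38.4% in 961C with joined peaks. The second-track difference was -0.0146 reads by means in 748T and -0.0147 for peaks of 200 bp or more in 961C. Overlap with H3K4me3 in 961C was 4.91% for the taller 50%. Apart from the scaled heights, where the lower share follows from fewer peaks reaching 10 reads, the cause of these shifts was not tested. Precision is limited by low heights, with medians of 10 to 12 reads, and by unknown depth.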
